A study of Mus musculus with 2 samples.

Results

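The 28 genes described here are the Psg and Ceacam genes of mouse chromosome 7. They were taken by symbol, Psg or Ceacam followed by a number, from the RefSeq annotation of GRCm38, and comprise 13 Psg and 15 Ceacam genes, all protein-coding. Windows of 50 kb that overlap their bodies numbered 25 of 43941 in the table analysed here, and these hold 26 of the 28 genes. Psg16 and Psg27 overlap no window of the table and were not analysed here. The genes were chosen by symbol and position, but the set was proposed with the allelic counts of these windows known, so its counts are given as a description, and genome-wide calls are set beside the share of all windows called.

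The data are Promoter Capture Hi-C of F121-6, a line of female hybrid mouse embryonic stem (ES) cells with a 129 chromosome set and a Mus castaneus (Cas) set. All cells were grown with LIF on mouse embryonic fibroblasts inactivated with mitomycin C. No treatment or genotype differed between the 2 samples, replicates 1 and 2. The method cuts and religates crosslinked chromatin and enriches ligation products that hold a promoter, and the comparison throughout is between the alleles of the same cells. The table holds 1 pooled count and 1 pooled distance per allele and window, so no spread between replicates exists. Intervals cover counting error, and tests compare windows of the pooled libraries. Interaction counts measure contacts and not expression, so the label of ES cells could not be checked against marker genes.

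Pregnancy-specific glycoproteins (PSG) are secreted proteins of the immunoglobulin superfamily, made in large amounts by trophoblast cells of the placenta and known for effects on maternal immune cells and vessels. They belong to the same family as the carcinoembryonic antigen-related cell adhesion molecules (CEACAM), some of which are anchored in the membrane and bind CEACAM proteins of neighbouring cells. In rodents the family has expanded by tandem duplication, and several rodent-specific Ceacam genes are, like Psg genes, expressed in the placenta.

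With members no more than 500 kb apart joined, the genes fell into 5 clusters. Cluster 1 runs from Ceacam15 to Psg17 (16671331 to 18821591) and holds all 13 Psg genes and 8 Ceacam genes. Cluster 2 holds Ceacam16, Ceacam19 and Ceacam20 (19852097 to 19991113). Ceacam10 stands alone as cluster 3 (24777167 to 24784656), Ceacam1 and Ceacam2 form cluster 4 (25461702 to 25540004), and Ceacam18 is cluster 5 (43634617 to 43649295). The table holds 31 of the 44 windows that cluster 1 spans, leaving 29.5% of them out, against 10.3% of those between the first and last window of chromosome 7.

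The promoters show how closely the Psg genes resemble each other. RefSeq sequences (GRCm38.p6) of the 250 bases before a start site were held for 23 of the 28 genes. That start was the first base of the annotated gene for 13 of them and lay inside the gene for 10, by 22 to 60 bases except at Ceacam18 (122) and Psg20 (285), so the Psg20 stretch lies wholly inside its gene. Shown are the genes in the windows with the lowest and the highest ratio of 129 to Cas counts in each family, and Ceacam3, which also bears the synonym Psg24. Only bases before the annotated gene are printed, which leaves 228 for Ceacam3 and 128 for Ceacam18. They are written 5′ to 3′ along the gene, and capitals mark the letters GATAAG on either strand.

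Psg28, chr7:18432056-18432305, minus strand: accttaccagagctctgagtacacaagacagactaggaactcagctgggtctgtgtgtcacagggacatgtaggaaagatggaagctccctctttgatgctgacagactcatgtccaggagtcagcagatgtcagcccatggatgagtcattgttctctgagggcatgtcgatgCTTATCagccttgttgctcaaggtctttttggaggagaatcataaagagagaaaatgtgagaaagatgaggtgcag
Psg23, chr7:18616502-18616751, minus strand: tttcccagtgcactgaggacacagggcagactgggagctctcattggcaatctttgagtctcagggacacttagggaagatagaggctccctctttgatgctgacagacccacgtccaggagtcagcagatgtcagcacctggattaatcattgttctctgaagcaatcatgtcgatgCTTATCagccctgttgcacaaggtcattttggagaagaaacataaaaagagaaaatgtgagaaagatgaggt
Psg21, chr7:18656726-18656975, minus strand: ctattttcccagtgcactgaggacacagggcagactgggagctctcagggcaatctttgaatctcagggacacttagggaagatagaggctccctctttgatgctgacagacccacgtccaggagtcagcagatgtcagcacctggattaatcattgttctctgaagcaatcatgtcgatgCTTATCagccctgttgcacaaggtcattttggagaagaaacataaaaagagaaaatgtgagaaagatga
Ceacam3, chr7:17149969-17150196, plus strand: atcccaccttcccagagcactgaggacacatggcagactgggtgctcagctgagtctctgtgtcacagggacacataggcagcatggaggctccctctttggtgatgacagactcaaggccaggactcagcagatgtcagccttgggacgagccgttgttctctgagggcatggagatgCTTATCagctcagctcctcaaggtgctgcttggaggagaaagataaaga
Ceacam11, chr7:17971917-17972166, plus strand: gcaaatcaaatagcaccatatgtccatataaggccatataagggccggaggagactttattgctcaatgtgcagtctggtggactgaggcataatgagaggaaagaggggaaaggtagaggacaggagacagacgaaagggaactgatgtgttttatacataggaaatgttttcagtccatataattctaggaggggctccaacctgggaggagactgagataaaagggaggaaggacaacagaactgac
Ceacam18, chr7:43634489-43634616, plus strand: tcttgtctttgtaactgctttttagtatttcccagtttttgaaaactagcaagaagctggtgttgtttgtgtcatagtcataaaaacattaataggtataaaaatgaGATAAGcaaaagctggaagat

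Among 9 Psg promoters, Psg20 left out, aligned identity had a median of 78.4% over 36 pairs (53.5 to 96.4%). The closest pairs were Psg18 with Psg28, at 96.4%, and Psg23 with Psg21, at 96.1%. The Psg20 stretch, which is from inside its gene, was 45.4 to 50.2% identical with those of the other Psg genes. Ceacam3 was as close to these 9 promoters as many are to each other, with a median of 72.7% (63.2 to 77.5%), and Ceacam5, which bears the synonym Psg30, had a median of 70.6%. The other Ceacam promoters had a median of 46.2% with the same Psg genes. Ceacam11 and Ceacam13 were 79.2% identical, and Ceacam10 and Ceacam1, in different clusters, 82.8%.

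**Figure D1:**
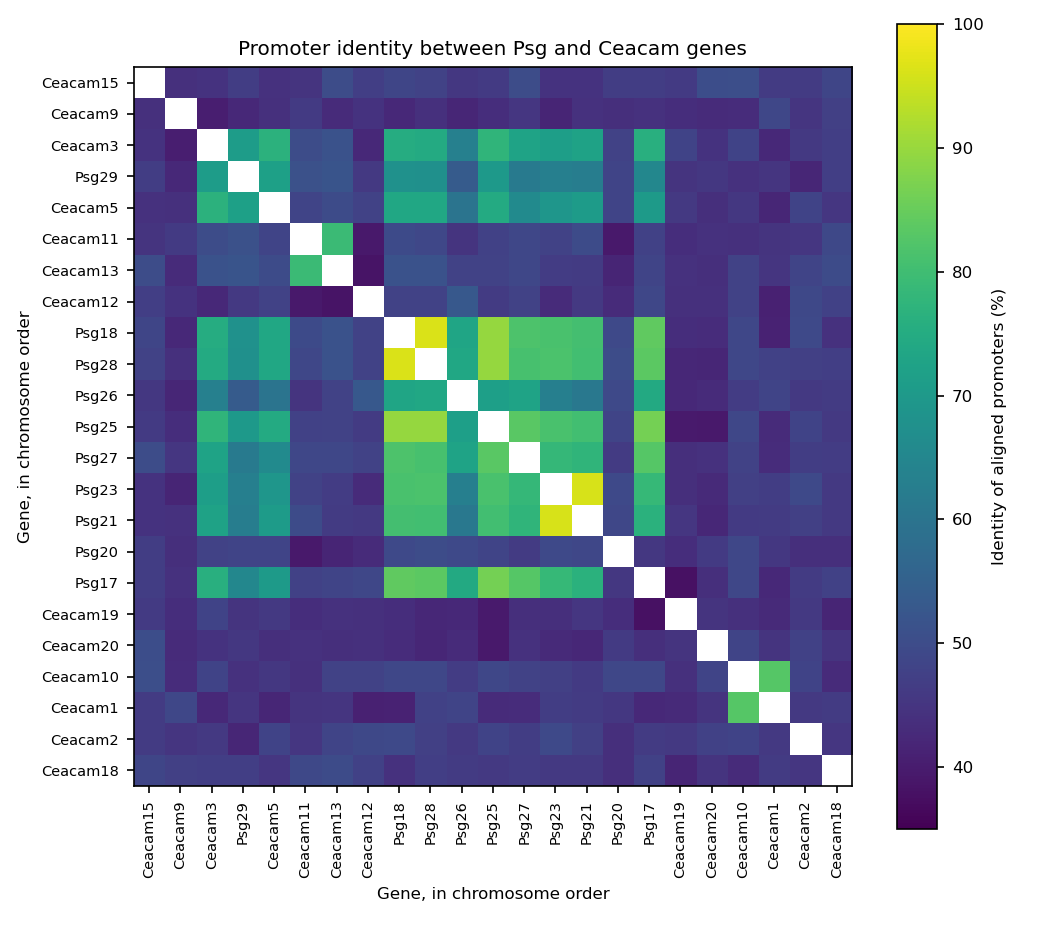
Percent identity of globally aligned promoters, 250 bases before the RefSeq start site used, for the 23 genes with a sequence, in chromosome order; the diagonal is blank. A bright block holds the Psg genes other than Psg20, with Ceacam3 and Ceacam5, and separate bright squares mark Ceacam11 with Ceacam13 and Ceacam10 with Ceacam1.

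The letters GATAAG (reverse complement CTTATC), the core bound by GATA factors, were found on either strand in 9 of 10 Psg promoters, all but Psg20, in 3 of 13 Ceacam promoters (Ceacam3, Ceacam5 and Ceacam18) and in 6.60% of 27025 RefSeq promoters. This motif was chosen after the sequences were seen. The 9 Psg promoters resemble each other and Ceacam3 and Ceacam5, so their matches are not independent of each other. In the Psg genes and in Ceacam3 and Ceacam5 it read CTTATC, starting 69 to 108 bases before the start site. In Ceacam18 it read GATAAG at 143 and 106 bases before the start used, the latter inside the annotated gene. AAGCTT, the site cut by HindIII in this assay and its own reverse complement, was in none of the 23 promoters and in 6.16% of all. TATAAA (or TTTATA) was in 0 of 10 Psg and 4 of 13 Ceacam promoters, Ceacam9, Ceacam11, Ceacam12 and Ceacam18, and in 13.0% of all. CACCC (or GGGTG) was in 9 of 23 and 51.3% of all, and GGAAGT (or ACTTCC) in 5 of 23 and 19.99% of all. These are matches of letters in a fixed stretch, and they describe no binding.

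Over all 19 autosomes, interaction counts summed to 50842396 on 129 and 37470557 on Cas, so 57.6% were on 129, and the log2 ratio of 129 to Cas was 0.45 in the median window. Ratios below are log2((129 + 1)/(Cas + 1)) minus that median, so 0 is the middle of the genome and not an equal count. Calls are from a beta-binomial test of each window's 129 count against the autosomal share, which allows for the spread between windows, with Benjamini-Hochberg adjustment over the 43762 windows whose alleles sum to 10 or more. All 25 member windows reached that count.

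The member windows lay towards Cas relative to the genome, together with their neighbours. They held 29541 interactions on 129 and 27373 on Cas, of which 129 made up 51.9% (exact Clopper-Pearson 95% interval 51.5 to 52.3%), and their median centred ratio was -0.37 (quartiles -0.64 and -0.07). Of the 25 windows, 22 lay below 0, as did 49.9% of all windows. Without centring the median was 0.08, so the raw counts of the median member window were nearly equal on the alleles, where those of the median autosomal window favoured 129. The beta-binomial test called 1 of the 25 windows towards Cas and 0 towards 129, beside 0.217% and 0.727% of all windows, or 0.944% in either direction. Among the 17 member windows with a single protein-coding gene it called the same 1 and 0, beside 0.183% and 0.686% of all such windows. The exact binomial test, which covers counting error only, called 15 towards Cas and 2 towards 129, beside 24.3% and 27.1%, or 51.4% in either direction. A centred ratio of 2-fold or more towards Cas was found in 5 member windows, beside 0.923% of all windows. It was also found in 2 of the 41 windows without a member in and around clusters 1 and 2. Of the 5, the windows of Psg29, Psg26 and Psg23 with Psg21 held 124, 65 and 38 interactions, beside a median of 974 over all windows. Only the Ceacam11 window among the 5 was called by the beta-binomial test.

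This position was not particular to the member windows. The 41 windows of clusters 1 and 2 and of the 500 kb around them that hold no member had a median of -0.40, with 39 of 41 below 0 and a 129 share of 51.2% (51.0 to 51.4%). Only 1 of these windows lies after cluster 2. The 21 member windows of the same stretch, which include that of Ceacam11, had a median of -0.39 and a share of 49.0% (48.5 to 49.5%). On the rest of chromosome 7 the median was 0.01 and the share 57.7%. Member and neighbouring windows thus lay at like values, well away from the chromosome's middle. In bins of 1 Mb, the medians were -0.40 from 16000001, -0.56 from 17000001, -0.30 from 18000001 and -0.40 from 19000001. Of 2347 bins with 5 or more windows over all autosomes, 3.75%, 0.810%, 6.90% and 3.62% lay at or below these values, in the same order. The bins include member windows. The lowest median rests on 9 windows and is the value of the Ceacam5 window. Values towards Cas were not confined to these bins, as the bin from 15000001 was at -0.20 and that from 23000001 at -0.34, each on 12 windows. The bins from 24000001 and 25000001, which hold clusters 3 and 4, were at -0.03 and 0.00. From the Ceacam15 window on, 23 windows of the table in a row lay below 0, up to the Psg18 windows.

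**Figure D2:**
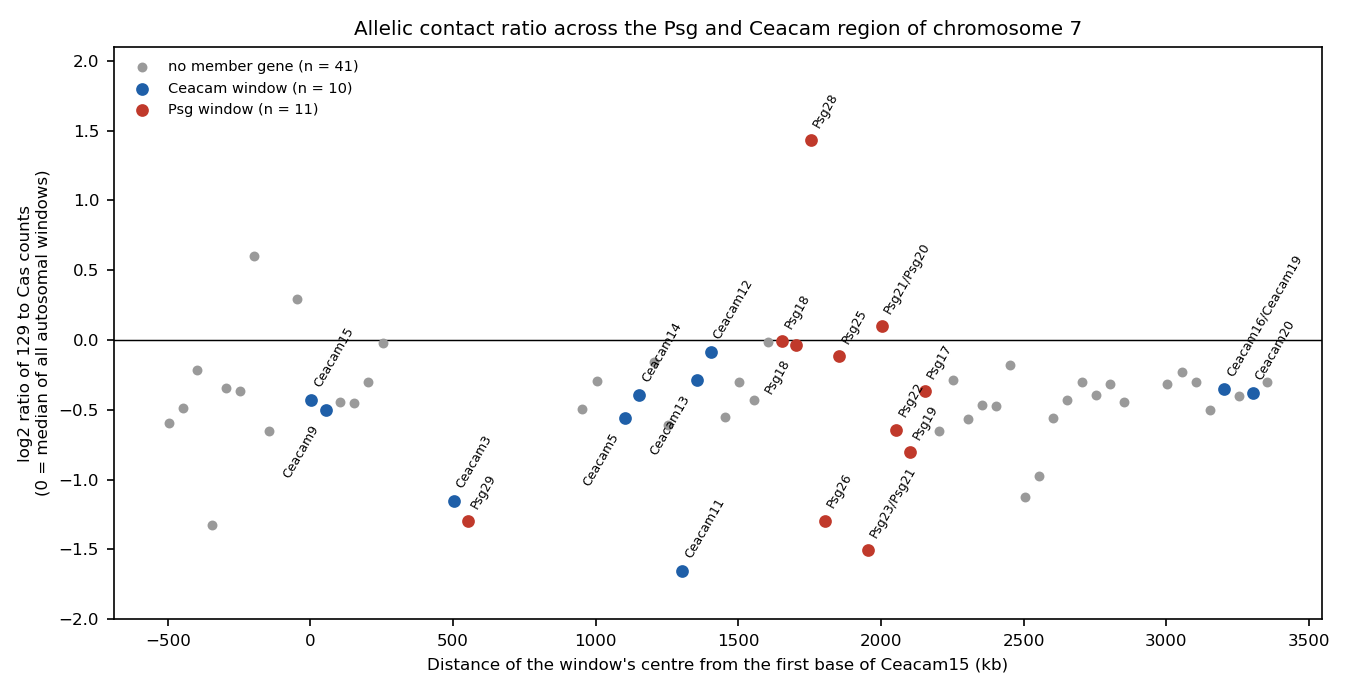
Centred log2 ratio of 129 to Cas interaction counts for the 62 windows of clusters 1 and 2 with 500 kb on either side. Only 1 of them lies after cluster 2. Distance is from 16671331, the first base of Ceacam15 along the chromosome, which is the end of this minus-strand gene. A value of 0 is the median of all autosomal windows, and each point is 1 window of 50 kb. Of the 62 points, 58 lie below 0, with Ceacam11 lowest at -1.66 and Psg28 highest at 1.43.

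Ceacam11, one of the rodent-specific Ceacam genes expressed in the placenta, lay in the only member window that the beta-binomial test called. That window (17950001 to 18000000) had 1502 interactions on 129 and 3463 on Cas, 2.31-fold more on Cas, with 30.3% on 129 (29.0 to 31.6%) and a centred ratio of -1.66 (adjusted p = 0.00339, beta-binomial test). Contacts there were the reverse of the genome's usual excess on 129. Tested against an equal share of both alleles in place of the autosomal share, the window was not called (adjusted p = 0.876, beta-binomial test). The overdispersion was fitted again around the equal share, and that setting called 0.274% of all windows, beside 0.944% with the autosomal share. It thus does not show that the alleles were equal there. The window holds no other protein-coding gene. The adjoining window of Ceacam13, whose promoter resembles that of Ceacam11, had 3461 on 129 and 3087 on Cas, a ratio of -0.29. The window on the other side, with no member gene, had 894 and 998, a ratio of -0.61. The imbalance was thus far smaller in the windows next to it. In cluster 1 the Ceacam11 window weighed on the summed share, which was 48.6% (48.0 to 49.1%) over 19 windows and 51.8% (51.3 to 52.4%) without it.

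The remaining Ceacam windows of cluster 1 lay between -1.15 and -0.08. Ceacam12 had 1871 interactions on 129 and 1450 on Cas, a ratio of -0.08. Ceacam14 had 890 and 853, a ratio of -0.39, and Ceacam5 had 625 and 674, a ratio of -0.56. The Ceacam5 window holds the end of the gene, since its start site falls in a stretch that is not analysed here. At the start of the cluster, Ceacam15 had 1062 and 1044, a ratio of -0.43. Ceacam9, expressed in trophoblast, had 2329 and 2411, a ratio of -0.50, in a window it shares with Ap2s1, a clathrin adaptor gene. Apart from Ceacam3, these windows had nearly equal raw counts or a small excess on 129. Ceacam3, at 246 on 129 and 400 on Cas, had 38.1% on 129 (34.3 to 42.0%) and a ratio of -1.15 (adjusted p = 0.221, beta-binomial test).

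Psg windows had fewer contacts than Ceacam windows, and a wider spread of ratios where counts were low. The 11 Psg windows had a median summed count of 237 (38 to 2653) and the 14 Ceacam windows one of 2713.5 (147 to 9641), and 7 of the 11 Psg windows but 1 of the 14 Ceacam windows had under 500. Of the 6 member windows that also hold a gene of another family, 5 were Ceacam windows. In windows with 1 protein-coding gene, the 8 Psg windows had a median of 312.5, beside 1240 over all 18139 such windows and 1307 over the 1069 on chromosome 7. Counts follow the baited fragments of a window and the reads that could be placed there, and the part of either, or of the likeness between Psg sequences, in these low counts was not tested. Centred ratios of the Psg windows ran from -1.51 to 1.43, with a median of -0.37, and 9 of 11 lay below 0. Quartiles were -1.30 and 0.03 in the 7 Psg windows under 500, and -0.48 and -0.09 in the 4 of 500 or more. In the 14 Ceacam windows they were -0.48 and -0.11, so the wider spread lay in the Psg windows with few contacts.

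The highest and the lowest of them lay in the tandem array from Psg18 to Psg17. Psg28 (18400001 to 18450000) had 143 interactions on 129 and 38 on Cas, 3.76-fold more on 129, a share of 79.0% (72.3 to 84.7%) and a ratio of 1.43 (adjusted p = 0.142, beta-binomial test). It was the only member window with a 2-fold or larger ratio towards 129, which 2.4% of all windows reached. The windows of Psg18, whose promoter is nearly identical to that of Psg28, did not share this ratio. They had 323 on 129 and 237 on Cas, a ratio of -0.01, and, where the start site lies, 114 and 85, a ratio of -0.03. On the other side of Psg28, the Psg26 window had 23 and 42, a ratio of -1.29 (share 35.4%, 23.9 to 48.2%; adjusted p = 0.535, beta-binomial test). Windows next to each other thus had ratios of opposite sign, both at low counts.

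The lowest Psg ratio, -1.51, was in the window that holds Psg23 and part of Psg21, genes strongly expressed in the placenta. It had 12 interactions on 129 and 26 on Cas, the smallest count of all members, and its share of 31.6% had an interval of 17.5 to 48.7% (adjusted p = 0.539, beta-binomial test). The next window, with the start sites of Psg21 and Psg20, had 141 on 129 and 96 on Cas, a ratio of 0.10. Psg29, which lies apart from the array next to Ceacam3, had 44 and 80, a share of 35.5% (27.1 to 44.6%) and a ratio of -1.30 (adjusted p = 0.283, beta-binomial test). These windows each had under 250 interactions, and none passed the test. Psg22, expressed by trophoblast giant cells, had 199 on 129 and 227 on Cas, a ratio of -0.64. Psg19 had 300 and 383, a share of 43.9% (40.2 to 47.7%) and a ratio of -0.80 (adjusted p = 0.863, beta-binomial test). At higher counts, Psg25 had 1481 and 1172, a ratio of -0.12. Psg17, which encodes a secreted protein known to bind the tetraspanin CD9, had 1206 and 1137, a ratio of -0.37, in a window it shares with Mill2. Among the 4 Psg windows with 500 or more interactions the ratios stayed between -0.80 and -0.01.

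**Figure D3:**
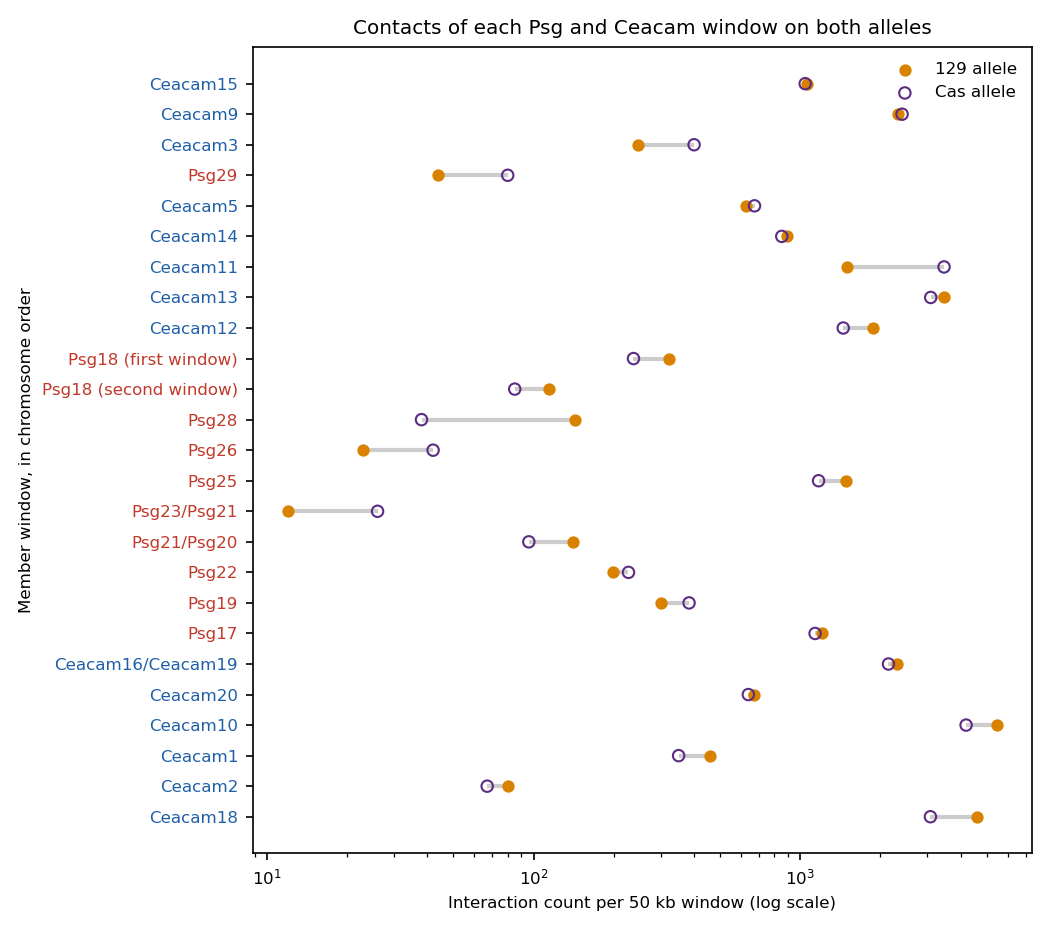
Interaction counts on the 129 allele (filled) and the Cas allele (open) for the 25 member windows in chromosome order, on a log axis; a grey bar joins both values of a window. Ceacam11 shows the widest gap among windows with over 1000 interactions, and Psg28, Psg26, Psg23/Psg21 and Psg29 show wide gaps at low counts.

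Outside clusters 1 and 2 the Ceacam windows lay close to the middle of the genome. Ceacam10, which encodes a secreted protein of the seminal vesicle, had 5451 interactions on 129 and 4190 on Cas, a ratio of -0.07, in a window shared with Cd177. Ceacam1, an adhesion molecule with an inhibitory tail and the receptor of mouse hepatitis virus, had 460 and 350, a ratio of -0.06. Its close relative Ceacam2 had 80 and 67, a ratio of -0.20. Ceacam18 had 4603 and 3079, a share of 59.9% (58.8 to 61.0%) and a ratio of 0.13, in a window shared with Zfp819 and Siglece. Over these 4 windows the share was 58.0% (57.2 to 58.7%), near the autosomal 57.6%. In cluster 2, Ceacam16, which encodes a protein of the tectorial membrane of the inner ear, shared a window with Ceacam19 and Gm19345. That window had 2302 on 129 and 2143 on Cas, a ratio of -0.35. Ceacam20 had 673 and 639, a ratio of -0.38, in a window shared with Igsf23 and Nlrp9b. Cluster 2 thus lay with cluster 1 and its flanks, and clusters 3 to 5 did not; no test of this difference was made. Flanking windows within 500 kb behaved like their clusters, with medians of -0.47 around cluster 1, -0.31 around cluster 2, -0.01 and 0.00 around clusters 3 and 4, and 0.26 around cluster 5. Of the 9 flanking windows of cluster 2, 8 lay before it and 1 after, so its far side was hardly covered. The flanks of clusters 3 and 4 share windows and are not separate observations.

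The distance of interactions did not lean to either allele over the members as a whole. In the 25 windows, all with 10 or more interactions per allele, the distance was longer on 129 in 13, longer on Cas in 10 and equal in 2, and over all windows it was longer on 129 in 48.7%. On the log2 scale the distance on 129 relative to Cas had a median of 0.03, beside 0.00 over all windows. A distance gap of 2-fold or more was seen in 5 member windows, 4 with the longer distance on 129 and 1 on Cas, beside 8.37% and 8.73% of all windows. With 1 distance per allele, no test was possible, and the labels do not say how a window's interactions were reduced to 1 distance.

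Ceacam11 contacts were shorter on the allele that had more of them. The distance there was 61 kb on 129 and 22 kb on Cas, and in the Ceacam13 window 25 and 31 kb. Psg25 had 123 kb on 129 and 54 kb on Cas, with a count ratio near 0. Psg17 had 537 and 260 kb. Psg29 had 6358 and 626.5 kb, but these rest on 44 and 80 interactions. Longer distances on Cas were found at Ceacam18 (45 kb on 129 and 75 kb on Cas), Ceacam12 (45 and 73.5 kb) and Psg26 (293 and 453 kb). The Psg23 window, named for its size of difference after the values were seen, had 385 and 1563 kb on 12 and 26 interactions. The windows with the widest distance gaps, Psg29 and Psg23, were also among those with the fewest contacts. Distances at Psg windows had medians of 344 kb on 129 and 298 kb on Cas, and at Ceacam windows 125.5 and 120 kb. Over all windows the medians were 348 and 347.5 kb. In windows with 1 protein-coding gene they were 272.5 and 268 kb for Psg, beside 261 and 265.5 kb over all such windows.

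**Figure D4:**
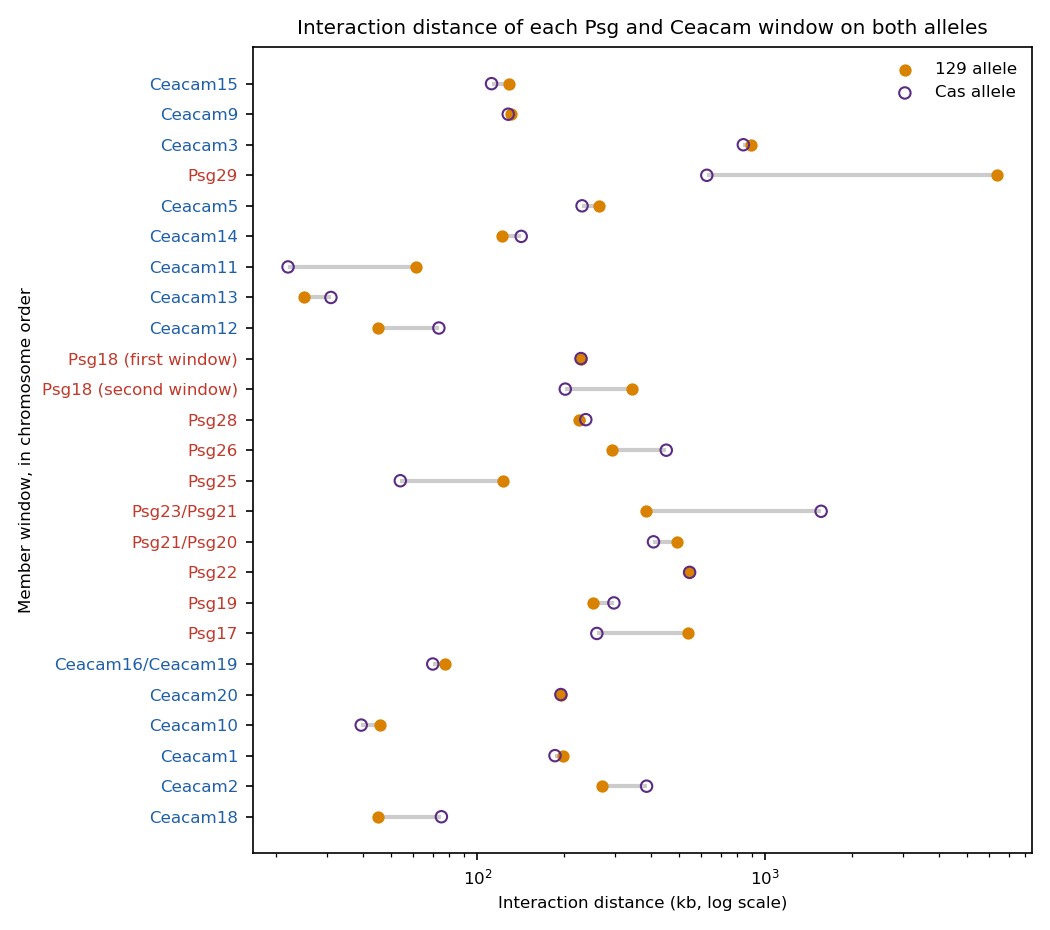
Interaction distance in kb on the 129 allele (filled) and the Cas allele (open) for the 25 member windows in chromosome order, on a log axis; a grey bar joins both values of a window. Psg29 reaches 6358 kb on 129, and Ceacam11 has 61 kb on 129 and 22 kb on Cas.

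Other genes of PSG and CEACAM biology were taken from lists made for this report. Of 17 genes of binding partners and signalling of these proteins, 16 lay in windows, and 0 of their 28 windows were called in either direction by the beta-binomial test; the exact binomial test called 6 towards 129 and 10 towards Cas, 16 of 28 beside 51.4% of all windows, where the beta-binomial test calls 0.944%. Their median ratio over genes was -0.08. Lyn, a Src-family kinase, had 3411 interactions on 129 and 1981 on Cas, a ratio of 0.33, and the integrin gene Itgb3 had 5594 and 3265, a ratio of 0.32. The syndecan gene Sdc2 had 2962 and 3148, a ratio of -0.54, and Havcr2, whose product TIM-3 binds CEACAM1, had 752 and 762, a ratio of -0.47. Cd9 was at 0.00. Of 24 trophoblast and placental genes, 21 lay in windows, and 0 of 29 windows were called by the beta-binomial test, with 10 towards 129 and 7 towards Cas by the exact binomial test, 17 of 29, against the same shares of all windows. Both lists thus had calls near the background. The median of the placental genes was 0.00. Peg10, needed for placental development, was at 0.40 and Gata2 at 0.38, while Tfap2c was at -0.28 and Pcdh12 at -0.16. The placental genes thus lay around the middle of the genome, unlike the Psg cluster; the difference was not tested. The 42 windows of vomeronasal Vmn1r genes, another tandem family of chromosome 7, had a median of 0.00 and a 129 share of 58.2% (57.8 to 58.7%), and this comparison too carries no test.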

How the data were processed

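Promoter Capture Hi-C libraries of 2 samples were made with HindIII, formaldehyde fixation at 2%, in-nucleus ligation, baits at 22225 promoters and paired reads of 100 bp, per the labels' protocols. Bowtie2 and mm10 are named in the submitters' processing notes; how alleles were assigned, reads filtered and duplicates removed was not stated there. The deposited table holds whole-number interaction counts per window of 50 kb and allele, not normalised, and a distance signal per allele deposited in steps of 500, taken to be bp. Both samples list the same columns, so each column was taken as pooled. Window starts were raised by 1.

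Windows were tested with a two-sided beta-binomial test against the autosomal 129 share of 57.6%, with a single overdispersion of 0.0165, and, as an alternative, an exact binomial test, both with Benjamini-Hochberg adjustment at 0.05 (p is 2 times the smaller tail). The overdispersion was fitted again for each other share or minimum count. Intervals are exact Clopper-Pearson at 95% and cover counting error only; interactions counted at both ends would make them too narrow. Genes were placed by RefSeq positions on GRCm38. Promoters were aligned globally with Biopython 1.88. Distances needed 10 interactions per allele. Named were called windows, the 6 highest and 6 lowest ratios and the 3 largest distance ratios per direction at 20 or more interactions, the highest count per cluster, and up to 2 list genes per direction; further members were given to account for all. Members and lists were chosen with earlier results of these data known. Tests used scipy 1.17.1 and numpy 2.4.6, tables pandas 2.3.3 and plots matplotlib 3.10.9, in Python 3.11.15.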

Additional observations from a re-analysis of the deposited data

How the results depend on the processing

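The call at Ceacam11 stood with an overdispersion for each count quartile, the share of chromosome 7 and minimum counts of 50 and 100. Adjusted p ran from 0.000379 to 0.00358 in these settings (beta-binomial test). A threshold of 0.01 and windows of start sites only keep the main adjusted p of 0.00339 (beta-binomial test), so they could not change the call. Against an equal share of both alleles 0 of 25 member windows were called, beside 0.274% of all windows. The exact binomial test against the autosomal share called 17 of 25. It also called 16 of 28 windows of the binding partner list and 17 of 29 of the placental list, near the 51.4% of all windows it calls, where the beta-binomial test called 0. The summed 129 share of the members moved from 51.9% to 56.5% without cluster 1, 51.0% without cluster 3 and 50.7% without cluster 5. In settings added after the data were seen, it was 48.5% in the 19 windows without a gene of another family and 54.0% without the Ceacam11 window, and that of cluster 1 became 51.8% without that window. The median ratio of the members was 0.085 without centring and otherwise stayed between -0.39 and -0.14, the latter from the 6 windows outside cluster 1. Of the 17 named windows, 9 not called by the beta-binomial test were called by the exact binomial test, which calls 51.4% of all windows. Many of the 17 were named for their ratios, so this count describes the choice as well. Restricting to protein-coding genes changed nothing, since all members are. Leaving out a replicate was not run, as the columns pool both samples. No paired analysis was possible because the columns carry no replicate numbers. Depth limits the Psg windows most: at 38 to 250 interactions, intervals of the share span over 10 percentage points.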

Other observations

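Among the windows near clusters 1 and 2 that hold no member gene, those described here have ratios at the ends of the range and were chosen after their values were seen. The window of Bbc3, a pro-apoptotic gene induced by p53, and Sae1 had 800 interactions on 129 and 1466 on Cas, a centred log2 ratio of -1.33, with distances of 237 and 67 kb. Between it and Ceacam15, 2 windows of Arhgap35 leaned the other way. The first, shared with Tmem160 and Npas1, had 2744 on 129 and 1323 on Cas, a ratio of 0.60, and the second had 2611 and 1554, a ratio of 0.30. Beyond Psg17, the window of Snrpd2, Gipr and Eml2 had 1347 and 2149, a ratio of -1.13, and the next, of Eml2, Gpr4 and Opa3, had 1787 and 2569, a ratio of -0.98. None passed the beta-binomial test, with adjusted p of 0.0589 at Bbc3, 0.201 and 0.430 at the Eml2 windows, and 1 at the Arhgap35 windows.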
